A study of Danio rerio with 10 samples.

Results

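DnaJ proteins, also called J proteins or HSP40s, are the co-chaperones of the HSP70 chaperones: their J domain stimulates the ATPase of HSP70, and they bring client proteins to it. In mammals, class A proteins carry the J domain, a glycine- and phenylalanine-rich stretch and a zinc finger, class B proteins lack the zinc finger, and class C proteins share only the J domain and have varied tasks in the endoplasmic reticulum, mitochondria, vesicles and nucleus. DNAJB1 is the member best known as heat-inducible, through the heat shock transcription factor HSF1, and most other members are thought of as constitutive.

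The DnaJ genes were taken as every gene of the read count files whose symbol began with dnaja, dnajb or dnajc, ignoring case, and whose mean over the 10 libraries was at least 1 CPM, the depth-normalised read count with TMM scaling. This gave 50 members among the 32057 genes counted, with 6 in class A, 14 in class B and 30 in class C, and the choice used no difference between doses. A pair of them, dnajb1a and dnajb1b, were the inducible dnajb1 genes, leaving 48 others. The members with the lowest means were DNAJB9 (ENSDARG00000016886) at 1.1 CPM and DNAJB13 at 1.12 CPM, and the 2 DnaJ genes left out were DNAJC5B at 0.874 CPM and DNAJC22 at 0.0545 CPM. All 50 members also passed the low-count filter of the test.

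All libraries were made from whole wild-type zebrafish embryos. Embryos were held in thallium nitrate, the salt of a toxic heavy metal, between 6 and 48 hours post fertilisation, and total RNA was taken with TRIzol. The control group had 0 ppb thallium nitrate (5 libraries), and the exposed groups 200 ppb (3 libraries) and 800 ppb (2 libraries). Whether replicates were separate clutches, and how many embryos went into each, is not given in the labels, so p-values measure only how far these samples differ, which can be technical.

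Depth ran from 12.1 to 48.3 megareads per library. Replicate 1 of 0 and of 200 ppb was built at a hospital core and the rest at a commercial provider, and the ratio of 2 deposited count sets placed the provider's libraries in 3 further batches. Batch 1 is thus the hospital core's pair, batch 2 holds replicate 2 and batch 3 replicate 3 of 0 and 200 ppb, and batch 4 holds 0 ppb replicates 4 and 5 with both 800 ppb libraries. Summed CPM of 6 genes that mark blood, liver, skin, lens and muscle was between 20590 and 42298 in every library. Most of that sum came from muscle actc1b (mean 17733 CPM) and skin krt4 (mean 13962 CPM), so it says little of the other genes.

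Before any comparison of doses, levels of many DnaJ genes differed between libraries and between sites, as did those of many other genes. Of the 5 controls, replicates 4 and 5 share batch 4, so their range holds spread both within and between batches. Across the 5 libraries at 0 ppb, the ratio of a member's highest to its lowest CPM had a median of 1.75. It ran from 1.12 for dnajb2 to 4.66 for DNAJB13, whose lowest control had only 7 reads. The ratio passed 2-fold for 16 of the 50 members, beside 46.9% of all genes tested. The hospital core's libraries lay above all of the provider's for 11 of the 50 members, beside 25.2% of all genes, and below all of them for 14, beside 21.6%. Summed over the 50 members the levels were closer, between 1394 CPM in 0 ppb replicate 2 and 1574 CPM in 800 ppb replicate 2.

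Some members of the vesicle group followed the batches. DNAJC5 (ENSDARG00000004836), the cysteine string protein of synaptic vesicles, had 125, 36.4, 83.8, 75.7 and 82.4 CPM at 0 ppb in replicates 1 to 5, 123, 38.2 and 76.2 CPM at 200 ppb and 81.4 and 82.1 CPM at 800 ppb. Its low libraries were those of batch 2 and its high ones those of batch 1, at either dose. A second DNAJC5 gene (ENSDARG00000042948) was also highest in batch 1, at 34.4 and 32.1 CPM. Its batch 2 libraries, at 18.3 and 19.8 CPM, lay within the 14.5 to 21.5 CPM of batches 3 and 4. DNAJC6, the auxilin that takes clathrin off vesicles, was lowest in batch 2, as the first DNAJC5 gene was. It had 40.2 CPM at 0 ppb and 40.1 CPM at 200 ppb there, against 58.4 to 72.2 CPM elsewhere. Summed CPM of 11 neuron markers was 1878 and 1922 in batch 2 and 2907 to 3108 in the other libraries. Single markers differed. ELAVL4 was lowest in batch 2, with 272 and 290 CPM against 508 to 620 CPM elsewhere. ELAVL3 had 1045 and 1062 CPM in batch 1 and 404 to 609 CPM elsewhere. For gap43, batch 1 was as low as batch 2, with 64.8 and 62.5 CPM against 71.2 and 82.4 CPM. The part of neurons in these levels was not tested. In RNA from whole embryos, fewer cells of a type and less RNA per cell cannot be told apart.

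In class C, dnajc14, whose mammalian protein sits in the endoplasmic reticulum membrane, had 18.3, 10.8, 4.38, 4.64 and 6.26 CPM at 0 ppb, 19.5, 10.9 and 4.58 CPM at 200 ppb and 4.34 and 4.30 CPM at 800 ppb. Within batches 1, 2 and 3 its levels at 0 and 200 ppb were close, while its highest control was 4.18 times its lowest. DNAJB13, known in mammals from the radial spokes of motile cilia and sperm tails, had 1.32, 0.435, 0.539, 2.03 and 1.81 CPM at 0 ppb and 1.47 and 1.1 CPM at 800 ppb. It was low in batches 2 and 3 and highest in the controls of batch 4, while summed CPM of 9 motile cilia markers ran from 37.4 to 55.9. The DNAJB13 levels rest on few reads, 7 and 8 in 0 ppb replicates 2 and 3 and 24 in each of replicates 4 and 5.

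**Figure D1:**
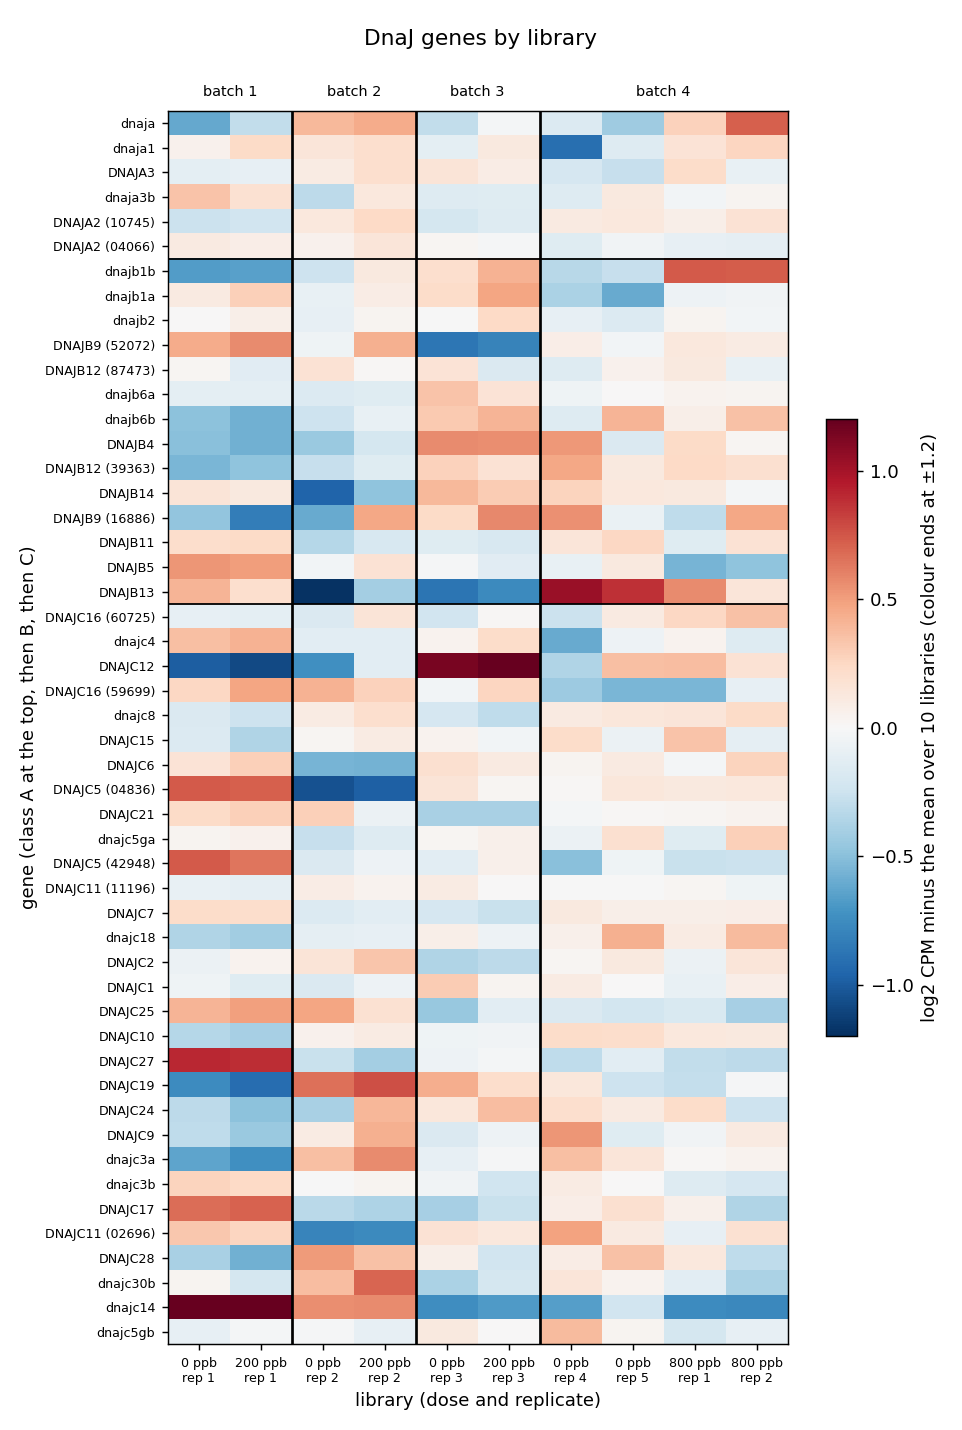
Each row is a DnaJ gene and each column a library, ordered by batch, with log2 CPM minus the gene's mean over the 10 libraries as colour. Digits after a symbol are the last of the Ensembl identifier, and columns of the same batch look more alike than columns of the same dose.

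Embryos at 800 ppb were compared with those at 0 ppb to ask which transcripts differed at the higher dose. With the site where a library was built as a term, none of the 50 DnaJ genes passed edgeR's quasi-likelihood test, Benjamini-Hochberg adjusted over 20867 genes, a test that called 0.0431% of all genes and 0.0383% as higher. An unadjusted p under 0.05 was found for 4 members, 3 higher (dnajb1b, dnaja and DNAJC16) and 1 lower (DNAJB5), or 8% against 4.76% of all genes. DESeq2 with the same terms called 1 member, dnajb1b, and 0.224% of all genes, and limma-voom called 0. With a term for library batch in place of site, edgeR called 2 members, dnajb1b and dnaja, both higher, where it called 0.311% of all genes and 0.235% as higher. An unadjusted p under 0.05 was then found for 7 members, 6 higher and 1 lower, or 14% against 7.32% of all genes.

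The DnaJ family as a whole had no common direction. With the site term 27 of 50 members had a log2 fold change above 0, with a median of 0.01, beside 48.0% and a median of -0.01 for all genes tested. With the batch term 22 of 50 were above 0, with a median of -0.02, beside 50.5% and a median of 0.00. The 95% interval of the fold change stayed within 2-fold in either direction for 41 members under the site term, beside 67.5% of all genes, and for 44 under the batch term, beside 74.2%.

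**Figure D2:**
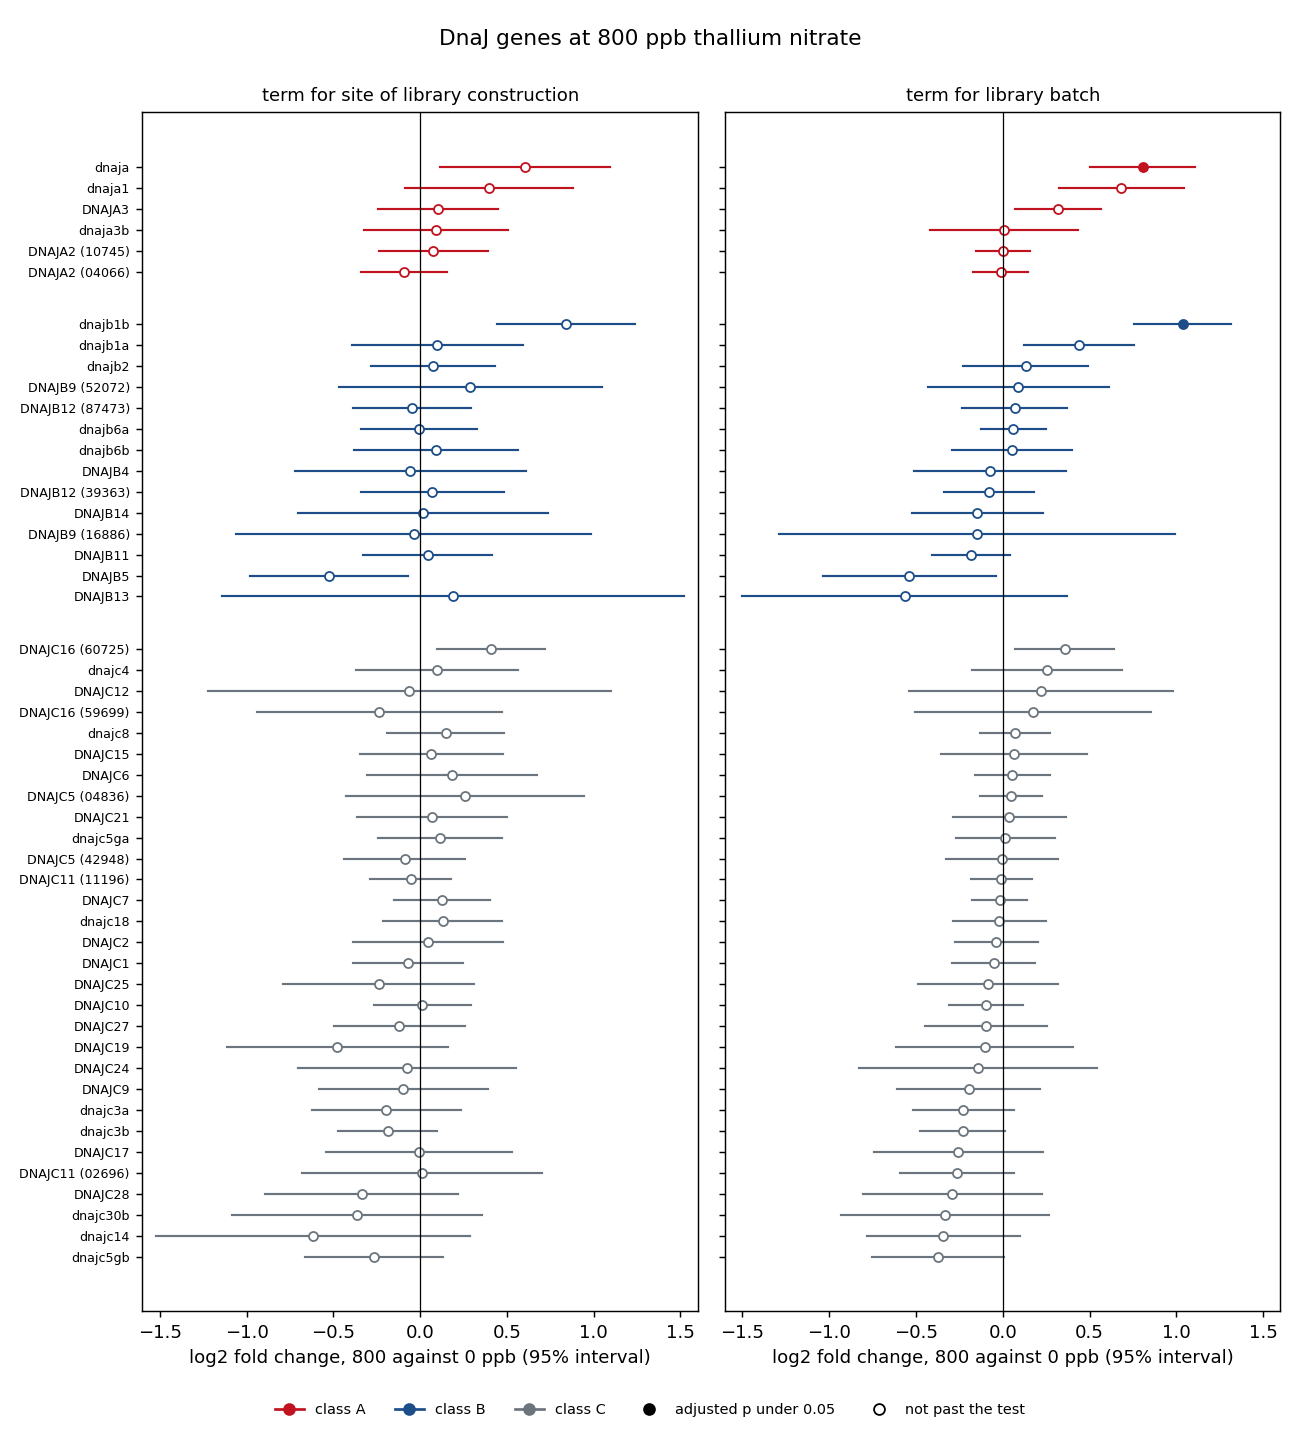
Log2 fold changes at 800 against 0 ppb with 95% intervals for the 50 DnaJ genes, by class, with the site term on the left and the batch term on the right; digits after a symbol are the last of the Ensembl identifier. Filled points passed the test: none on the left, and dnajb1b and dnaja on the right.

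The gene dnajb1b (ENSDARG00000041394) encodes a cytosolic class B HSP40 of the heat-inducible DNAJB1 type. It had 11.1, 14.9, 20.3, 14 and 14.6 CPM at 0 ppb in replicates 1 to 5, 11.2, 19.2 and 23.6 CPM at 200 ppb and 29.5 and 29.2 CPM at 800 ppb. At 800 ppb both libraries lay above all others, the nearest being 200 ppb replicate 3. The mean went from 15.0 ± 3.34 CPM (SD, n = 5) at 0 ppb to 29.3 ± 0.221 CPM (SD, n = 2) at 800 ppb.

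With the site term, the log2 fold change of dnajb1b was 0.84 (SE 0.18, 95% interval 0.44 to 1.24), and edgeR's adjusted p was 0.393. With the batch term it rose 2.05-fold, a log2 fold change of 1.04 (SE 0.13, 95% interval 0.76 to 1.32) at an adjusted p of 0.00148. That estimate rests on batch 4, so leaving out a library of another batch could change little but its spread. The log2 fold change was then 1.03 to 1.04, and the call held. It also held without 0 ppb replicate 4 (1.01) or replicate 5 (1.06). Without 800 ppb replicate 1 or 2 the log2 fold change was 1.03 or 1.04. There the spread came from the other groups, and the lone library was assumed to vary like them. A fit of batch 4 alone, 2 libraries against 2, makes the same contrast with the spread of those libraries only. Its log2 fold change was 1.04 (SE 0.14), at an edgeR adjusted p of 0.0203. For dnajb1b the batch-term difference was larger than the whole range of its 5 controls, which come from all batches.

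Its paralog dnajb1a (ENSDARG00000099383) had 14.9, 13.1, 16.1, 10.6 and 9.13 CPM at 0 ppb, 16.9, 14.7 and 19.2 CPM at 200 ppb and 13.3 and 13.5 CPM at 800 ppb. The 800 ppb libraries fell inside the range of all controls and above both controls of their own batch. The log2 fold change was 0.10 (SE 0.22) with the site term and 0.44 (SE 0.15, 95% interval 0.12 to 0.76) with the batch term, at edgeR adjusted p of 0.963 and 0.478. Neither value passed the test.

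The ratio of dnajb1b to dnajb1a reads set both against each other within a library. It was 0.745, 1.14, 1.26, 1.32 and 1.6 at 0 ppb, 0.667, 1.31 and 1.23 at 200 ppb and 2.22 and 2.16 at 800 ppb. The 800 ppb ratios were above those of every other library, and batch 1 held the lowest ratios at either dose. The mean ratio was 1.21 ± 0.310 (SD, n = 5) in the controls and 2.19 ± 0.0377 (SD, n = 2) at 800 ppb, and within batch 4 the controls were at 1.46 ± 0.196 (SD, n = 2).

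**Figure D3:**
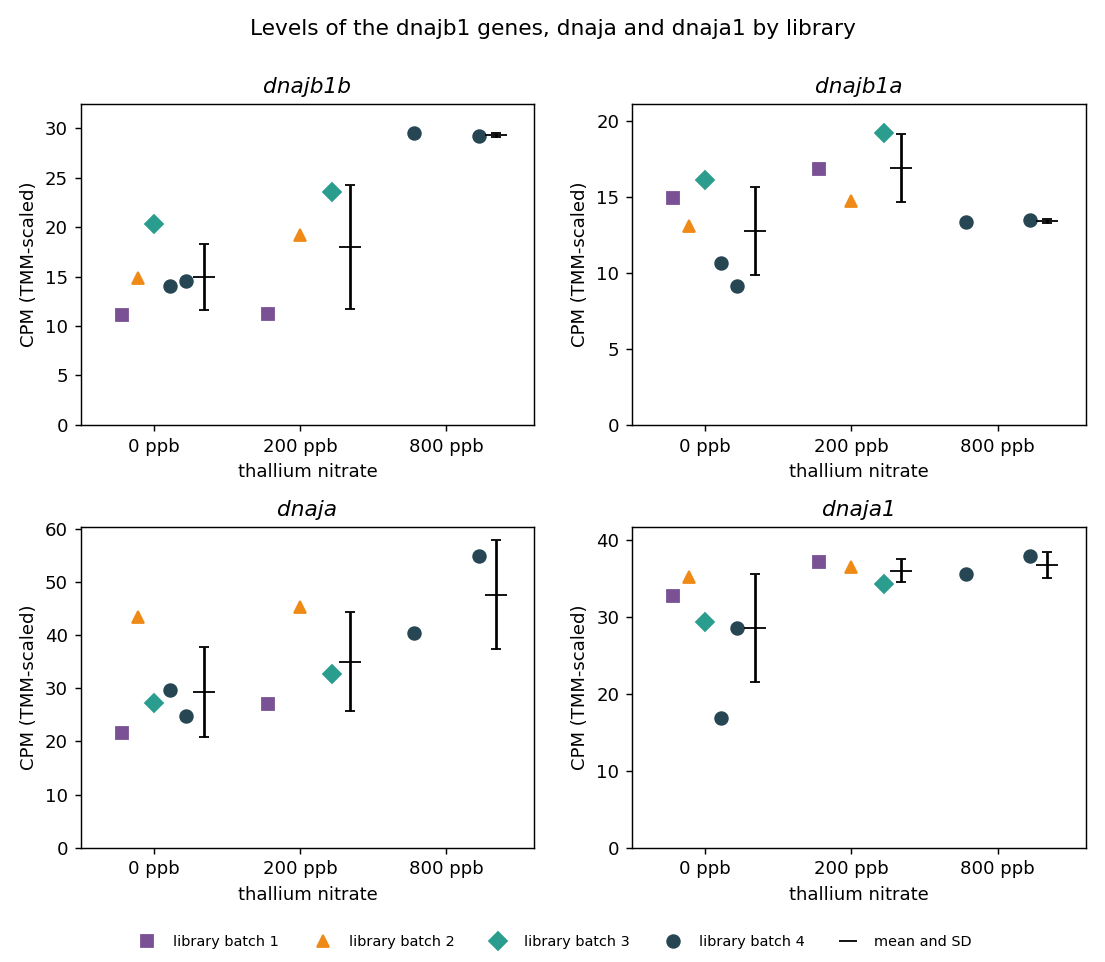
CPM of dnajb1b, dnajb1a, dnaja and dnaja1 in each library by dose, with batch as colour and shape and the mean and SD of each dose at the right of its points. Both 800 ppb libraries lie above all others for dnajb1b, at 29.5 and 29.2 CPM, and within the range of the other libraries for dnajb1a.

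Set against the rest of the family, the dnajb1 genes made up a small share of DnaJ reads. That share was 1.71%, 2.0%, 2.47%, 1.67% and 1.56% at 0 ppb, 1.85%, 2.30% and 2.95% at 200 ppb and 2.85% and 2.71% at 800 ppb. The 800 ppb libraries were above all controls, and 200 ppb replicate 3 was above them both. The mean share was 1.88 ± 0.368% (SD, n = 5) in the controls and 2.78 ± 0.102% (SD, n = 2) at 800 ppb. Mean CPM went from 15.0 to 29.3 for dnajb1b and from 12.8 to 13.4 for dnajb1a, so the share mostly restates dnajb1b. On the log2 scale the ratio of dnajb1 reads to those of the other 48 members was higher at 800 ppb by 0.60 over all libraries and by 0.80 within batch 4, while the summed level of the 48 was 1448 ± 52.9 CPM (SD, n = 5) in the controls and 1494 ± 52.9 CPM (SD, n = 2) at 800 ppb.

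**Figure D4:**
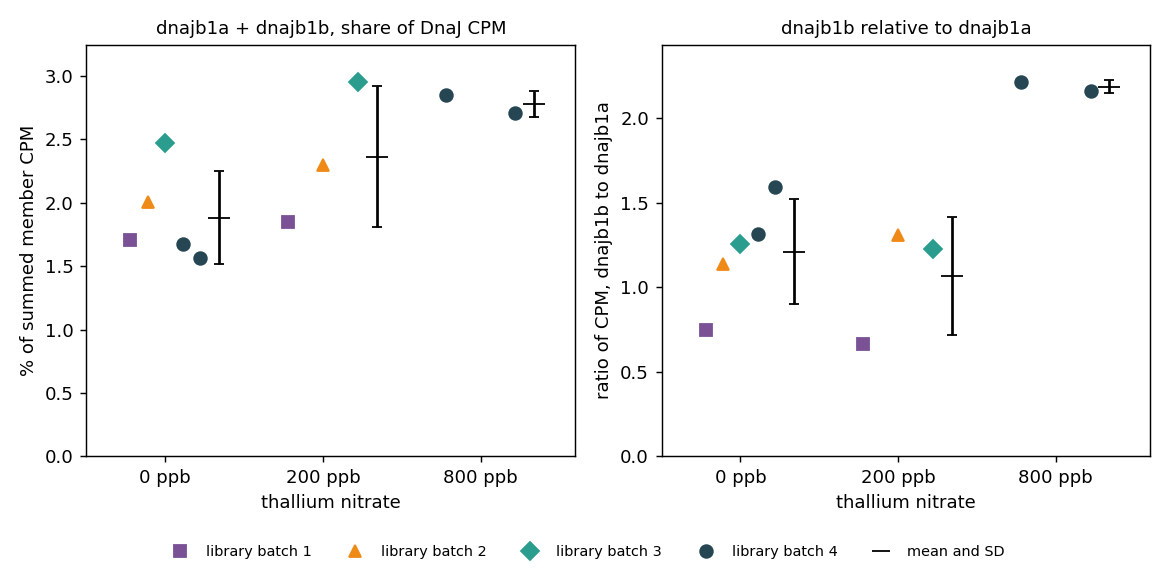
Left, the dnajb1 genes' share of the summed CPM of the 50 members in each library by dose; right, the ratio of dnajb1b to dnajb1a reads. Batch is shown by colour and shape and the black bars are the mean and SD of each dose; the 800 ppb libraries are at 2.85% and 2.71% on the left and at 2.22 and 2.16 on the right.

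Class A had a larger share of members above 0 than class B or C. With the site term 5 of 6 were higher at 800 ppb, beside 48.0% of all genes, with a median log2 fold change of 0.10. With the batch term 5 of 6 were higher, beside 50.5% of all genes, with a median of 0.16. Those 5 include DNAJA2 (ENSDARG00000010745) at 0.0011 (SE 0.07) and dnaja3b at 0.0076 (SE 0.20), so the class did not rise as a whole. Of the 6, 3 had an unadjusted p under 0.05, beside 7.32% of all genes, and 1 was called, beside 0.311%. The summed level of class A was 441 ± 25.8 CPM (SD, n = 5) in the controls and 470 ± 13.8 CPM (SD, n = 2) at 800 ppb, with both 800 ppb libraries inside the range of the controls.

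The called gene was dnaja (ENSDARG00000051762), named in the symbol table by its class alone and given no role here. It had 21.7, 43.5, 27.2, 29.6 and 24.7 CPM at 0 ppb, 27.1, 45.3 and 32.7 CPM at 200 ppb and 40.3 and 54.8 CPM at 800 ppb. Batch 2 was high at 0 and 200 ppb, so that 800 ppb replicate 1 lay inside the range of all controls and both 800 ppb libraries lay above the controls of batch 4. The log2 fold change was 0.60 (SE 0.22) with the site term, at an edgeR adjusted p of 0.930. With the batch term it rose 1.75-fold, a log2 fold change of 0.81 (SE 0.14, 95% interval 0.50 to 1.11) at an adjusted p of 0.0230. Without 0 ppb replicate 2 or 3 or 200 ppb replicate 2 or 3 the log2 fold change, which rests on batch 4, stayed at 0.81. That call was lost there, at adjusted p of 0.0605, 0.0617, 0.0596 and 0.0625. It was also lost without 0 ppb replicate 5 (log2 fold change 0.68, adjusted p 0.169) and without 800 ppb replicate 2 (0.57, adjusted p 0.0968). Within batch 4 alone the log2 fold change was 0.81 at an adjusted p of 0.157.

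The gene dnaja1 (ENSDARG00000030972), whose mammalian counterpart is a farnesylated cytosolic partner of HSP70, had 32.7, 35.1, 29.3, 16.9 and 28.5 CPM at 0 ppb, 37.2, 36.5 and 34.3 CPM at 200 ppb and 35.5 and 37.9 CPM at 800 ppb. Control replicate 4 was the lowest of all libraries, and both 800 ppb libraries lay just above the highest control. The log2 fold change was 0.40 (SE 0.22) with the site term and 0.68 (SE 0.17) with the batch term, and the adjusted p were 0.930 and 0.174. The batch-term value moved with the controls of batch 4: without 0 ppb replicate 4 it was 0.36, at an adjusted p of 0.475, and without replicate 5 it was 1.12 and passed the test, at an adjusted p of 0.00140. DESeq2 with the batch term also called dnaja1, at an adjusted p of 0.0480. No share of all genes is given for either of these fits. With the site term, DESeq2 called 0.224% of all genes where edgeR called 0.0431%.

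DNAJA3, the mitochondrial member known in mammals as Tid1, had 30.8, 35.8, 37.1, 29.1 and 27.5 CPM at 0 ppb, 31.2, 38.4 and 35.5 CPM at 200 ppb and 38.9 and 31.4 CPM at 800 ppb. Its 800 ppb replicate 1 lay above all controls and replicate 2 among them, and the log2 fold change was 0.10 (SE 0.16) with the site term and 0.32 (SE 0.12) with the batch term, not past the test. Without 800 ppb replicate 1 these were -0.06 and 0.15, and without 800 ppb replicate 2 they were 0.25 and 0.46. DNAJA2 (ENSDARG00000104066), a constitutive cytosolic HSP40 in mammals and the class A gene with the most reads, had 218, 209.9, 206, 183 and 196 CPM at 0 ppb, 214, 224 and 199.8 CPM at 200 ppb and 189 and 187 CPM at 800 ppb. Its log2 fold change was -0.09 (SE 0.11) with the site term and -0.01 (95% interval -0.17 to 0.14) with the batch term.

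Outside the dnajb1 genes, class B gave no call. Of its 12 other members 7 were above 0 with the site term (median log2 fold change 0.03), and 5 with the batch term, with a median of -0.08. DNAJB5, a cytosolic relative of DNAJB1 in mammals, had 7.14, 4.85, 4.92, 4.64 and 5.36 CPM at 0 ppb, 7.0, 5.59 and 4.52 CPM at 200 ppb and 3.36 and 3.54 CPM at 800 ppb. The 800 ppb libraries were below all others, and 0 ppb replicate 1 stood above the other controls. Its log2 fold change was -0.52 (SE 0.21) with the site term and -0.54 (SE 0.23) with the batch term, at edgeR adjusted p of 0.930 and 0.654, so it did not pass the test.

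The chaperones dnajb6a and dnajb6b, whose mammalian counterpart keeps polyglutamine proteins from aggregating, had 62.3 and 62.2 CPM and 23.8 and 29.0 CPM at 800 ppb. These levels lay within the range of the controls, which was 54.1 to 77.0 CPM for dnajb6a and 16.1 to 30.2 CPM for dnajb6b. DNAJB4, a further cytosolic member, had 13.1 and 11.4 CPM at 800 ppb and 7.91 to 16.6 CPM at 0 ppb. None of these genes passed the test with either term.

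In class C, 13 of 30 members were above 0 with the site term (median log2 fold change -0.06), and 10 of 30 with the batch term, with a median of -0.04. None passed the test in either fit, and 26 of 30 intervals lay within 2-fold in either direction with the site term, beside 67.5% of all genes, and all 30 with the batch term, beside 74.2%. DNAJC7, which in mammals bridges HSP70 and HSP90 and was the class C gene with the most reads, had 141, 108, 106, 132 and 127 CPM at 0 ppb, 140.3, 111 and 101 CPM at 200 ppb and 128 and 128 CPM at 800 ppb. The 800 ppb libraries lay inside the control range, and its log2 fold change was 0.13 (SE 0.13) with the site term and -0.02 (95% interval -0.18 to 0.14) with the batch term.

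DNAJC16 (ENSDARG00000060725), an endoplasmic reticulum membrane protein in mammals, had the smallest p of class C in the site-term fit. It had 25.1, 23.9, 23.0, 22.6 and 29.1 CPM at 0 ppb, 24.9, 30.0 and 27.2 CPM at 200 ppb and 32.1 and 34.4 CPM at 800 ppb. Both 800 ppb libraries were above every other library, and its log2 fold change was 0.41 (SE 0.14) with the site term and 0.36 (SE 0.13) with the batch term, at edgeR adjusted p of 0.930 and 0.551. The batch-term value was 0.19 without 0 ppb replicate 4 and 0.55 without replicate 5. DNAJC19, a part of the mitochondrial import motor, had 3.14, 8.39, 7.15, 5.83 and 4.45 CPM at 0 ppb, 2.80, 9.06 and 6.13 CPM at 200 ppb and 4.34 and 5.23 CPM at 800 ppb. The hospital core's libraries were the lowest and the 800 ppb libraries lay inside the control range, with a log2 fold change of -0.48 (SE 0.29) with the site term and -0.10 (SE 0.24) with the batch term. The latter was -0.29 without 0 ppb replicate 5 and -0.24 without 800 ppb replicate 2, and above 0 without 0 ppb replicate 4 (0.10) or 800 ppb replicate 1 (0.03).

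Sorted by the place where the mammalian protein works, 11 members were cytosolic HSP40s, 9 mitochondrial, 15 of the endoplasmic reticulum, 6 of vesicles and endosomes, 6 of the nucleus, ribosome or RNA processing and 1 of cilia, and 2 had no role listed. At 800 ppb the cytosolic group had 7 of 11 members above 0 with either term, the medians being 0.08 and 0.05 on the log2 scale. Of the 9 mitochondrial genes 5 were above 0 under the site term and 4 under the batch term, and their medians were 0.01 and -0.01. In the endoplasmic reticulum group 7 of 15 were above 0 with the site term, with a median of -0.04, and 4 of 15 with the batch term, with a median of -0.08 and a range of -0.34 to 0.36. Called members were found in the cytosolic group (dnajb1b) and among those with no role listed (dnaja), both with the batch term.

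Several endoplasmic reticulum members are targets of the unfolded protein response in mammals, and these were picked out for this reason after their values had been seen. DNAJB11, a co-chaperone of the HSP70 BiP and the class B gene with the most reads, had 71.9, 48.9, 56.2, 68.7 and 73.7 CPM at 0 ppb, 72.7, 54.4 and 54.3 CPM at 200 ppb and 56.0 and 69.9 CPM at 800 ppb, a log2 fold change of 0.04 (SE 0.17) with the site term and -0.18 (SE 0.11) with the batch term. The pair dnajc3a and dnajc3b, whose mammalian counterpart restrains the kinase PERK, were at 22.4 and 19.2 CPM and at 26.3 and 24.7 CPM in the controls of batch 4, and at 17.6 and 18.0 CPM and at 22.1 and 21.3 CPM at 800 ppb. For both genes the 800 ppb libraries lay below the controls of their batch, with log2 fold changes of -0.23 that did not pass the test. DNAJB9 (ENSDARG00000052072) had 4.14 and 3.85 CPM in the controls of batch 4 and 4.27 and 4.22 CPM at 800 ppb, a log2 fold change of 0.09 with the batch term. The second DNAJB9 gene (ENSDARG00000016886) had 1.52 and 0.981 CPM in these controls and 0.841 and 1.43 CPM at 800 ppb, a log2 fold change of -0.15 (SE 0.53).

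Counting members by overlap gave members in both directions, and not the same ones as the tests. Of the genes called with the batch term, dnajb1b was above all 5 controls in both 800 ppb libraries and dnaja was not. Both 800 ppb libraries were above all 5 controls for 4 members (DNAJC16, dnaja1, dnajb1b and dnajc8), or 8% of members beside 4.86% of all genes. They were below all 5 controls for 3 members (DNAJB5, dnajc14 and dnajc3b), or 6% beside 3.80% of all genes. Against the controls of batch 4 alone, 11 members were higher, 22% beside 16.5%, and 10 lower, 20% beside 16.3%. These shares are near those of all genes. Of the 6 class A members, 3 were among the higher, beside 16.5% of all genes, and 0 among the lower, beside 16.3%. With 6 genes, such counts say little of the class.

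At 200 ppb, no DnaJ gene passed edgeR's quasi-likelihood test with either term, and neither did any other gene, a background of 0.0%. An unadjusted p under 0.05 was found for 0 members with either term, beside 0.575% of all genes under the site term and 1.1% under the batch term, and DESeq2 and limma-voom also called 0. Of the 50 members 27 were above 0 with the site term, beside 49.1% of all genes, and 33 with the batch term, beside 49.4%. All 6 class A members were above 0 with both terms (median log2 fold changes of 0.10 and 0.07), class B had 8 and 12 of 14 above 0 (0.01 and 0.06), and class C 13 and 15 of 30 (-0.02 and 0.01). With the site term, this comparison and that of 800 ppb share the 0 ppb libraries, so their directions are not independent. With the batch term, each comparison rests on the 0 ppb libraries of its own batches, and no control library serves both. The spread for both comparisons still came from the same fit.

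Replicates 1, 2 and 3 of 0 and 200 ppb are pairs of the same batch, which allows each pair to be read on its own. The 200 ppb library was higher in all 3 pairs for 10 members, 20% beside 11.6% of all genes, and lower in all 3 for 3 members, 6% beside 12.4%. For dnajb1b the log2 differences within pairs were 0.02, 0.37 and 0.21, and for dnajb1a 0.18, 0.17 and 0.25. Their batch-term log2 fold changes were 0.19 (95% interval -0.02 to 0.41) and 0.20 (-0.03 to 0.43), and the adjusted p from edgeR rounded to 1.0 for both. The dnajb1 share of DnaJ reads was 2.36 ± 0.557% (SD, n = 3), and on the log2 scale the ratio of dnajb1 to other reads was 0.33 above that at 0 ppb over all libraries and 0.19 within pairs. The former was 0.15 without 200 ppb replicate 3 and 0.50 without 200 ppb replicate 1.

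Among the members with the smallest p at 200 ppb, dnaja had log2 differences within pairs of 0.32, 0.06 and 0.27, and dnaja1 of 0.18, 0.06 and 0.23. DNAJB12 (ENSDARG00000087473), an endoplasmic reticulum membrane protein that in mammals takes part in disposing of misfolded proteins, had 16.7, 18.7, 18.5, 14.8 and 17.1 CPM at 0 ppb, 15.1, 16.7 and 14.6 CPM at 200 ppb and 17.9 and 15.5 CPM at 800 ppb. It was lower at 200 ppb in each pair, with a batch-term log2 fold change of -0.21 (SE 0.11). The other DNAJB12 gene (ENSDARG00000039363) did not follow, with log2 differences within pairs of 0.07, 0.14 and -0.10. Its batch-term log2 fold change was 0.03 (SE 0.10). The gene dnajb2, whose mammalian counterpart passes ubiquitinated clients to the proteasome, had 9.41, 8.77, 9.37, 8.78 and 8.38 CPM at 0 ppb, 9.83, 9.62 and 11.1 CPM at 200 ppb and 9.60 and 9.19 CPM at 800 ppb. All 3 libraries at 200 ppb were above all controls, although its log2 fold change was 0.18 (SE 0.14) with the site term and it did not pass the test.

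The remaining members with small p at 200 ppb moved less clearly. The second DNAJC16 gene (ENSDARG00000059699) had 3.53, 3.98, 2.90, 2.20 and 2.04 CPM at 0 ppb, 4.14, 3.60 and 3.55 CPM at 200 ppb and 2.03 and 2.78 CPM at 800 ppb. Its groups overlapped, and only the pairs of replicates 1 and 3 were higher at 200 ppb. DNAJC2, a ribosome-associated member in mammals and yeast, had 25.8, 30.2, 21.0, 27.5 and 29.3 CPM at 0 ppb, 27.9, 34 and 21.8 CPM at 200 ppb and 25.7 and 29.9 CPM at 800 ppb. It was higher in each pair, by log2 differences of 0.11, 0.17 and 0.05.

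The comparison of 800 ppb with 200 ppb tested the doses against each other. No DnaJ gene passed edgeR's test with either term, where the site term called 0.0% and the batch term 0.0767% of all genes. An unadjusted p under 0.05 was found for 2 members with the site term, beside 8.88% of all genes, and for 3 with the batch term, beside 4.33%. Of the 50 members 26 were above 0 with the site term, beside 48.7% of all genes, and 20 with the batch term, beside 50.8%. For dnajb1b the log2 fold change was 0.53 (SE 0.20) with the site term and 0.84 (SE 0.17, 95% interval 0.49 to 1.2) with the batch term, at adjusted p of 0.560 and 0.123. No batch holds libraries of both 200 and 800 ppb, so the batch-term value rests on the controls of each batch.

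The HSP70 partners of the DnaJ genes were described from lists of other genes of the same machinery. Of 18 HSP70 chaperone genes, 3 rose at 800 ppb with the site term (hsp70.3, hsp70l and the HSPA8 gene ENSDARG00000037403), beside 0.0383% of all genes. With the batch term 6 rose, beside 0.235% of all genes, and none fell in either fit. The median log2 fold change of the list was 0.27 with the site term, beside -0.01 for all genes, and 0.33 with the batch term, beside 0.00. The inducible gene hsp70.3 had 6.52, 23.3, 19.6, 8.44 and 14.5 CPM at 0 ppb, 9.64, 30.5 and 27.3 CPM at 200 ppb and 122 and 53.3 CPM at 800 ppb. Both 800 ppb libraries were above all others but differed from each other, and the batch-term log2 fold change was 2.93 (SE 0.31).

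The HSPA8 gene ENSDARG00000068992 gave most of the HSP70 reads. It had 3810, 5125, 3756, 4475 and 4280 CPM at 0 ppb, 3842, 5201 and 3628 CPM at 200 ppb and 5800 and 5208 CPM at 800 ppb. Batch 2 was high at 0 and 200 ppb, and 800 ppb replicate 2 lay just above it. The 800 ppb libraries lay above the highest control, and the log2 fold change of 0.33 (SE 0.06) passed the test with the batch term, at an edgeR adjusted p of 0.0436, and not with the site term. The HSPA4 gene ENSDARG00000004754, of the HSP110 family of HSP70 exchange factors, had 64.3, 107, 96.2, 102 and 96.8 CPM at 0 ppb and 154 and 152 CPM at 800 ppb, clear of all controls. It rose by a log2 fold change of 0.62 (SE 0.08) with the batch term, at an adjusted p of 0.00137, while the site-term adjusted p was 0.144. The other HSPA4 gene, ENSDARG00000018989, had 217, 188, 144, 214 and 203 CPM at 0 ppb and 194 and 202 CPM at 800 ppb, inside the control range, with log2 fold changes of 0.09 (SE 0.18) and -0.07 (SE 0.07). HSPA2 was the sixth of these genes, with a log2 fold change of 2.13 (SE 0.32) with the batch term. The site term gave 1.47 (SE 0.38), not past the test. This gene had 3.74 to 13.3 CPM at 0 ppb, 5.67, 14.5 and 11.3 CPM at 200 ppb and 34.2 and 14.8 CPM at 800 ppb.

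A list of 21 genes held nucleotide exchange factors, other HSP70 partners, and heat shock factors with their binding proteins. The HSPA4 genes were counted with the chaperones instead. Of the 21, 0 passed edgeR's test with either term. An unadjusted p under 0.05 was found for 1 under the site term, beside 4.76% of all genes, and for 5 under the batch term, beside 7.32%. STIP1, which joins HSP70 to HSP90, had 141, 106, 109, 131 and 143 CPM at 0 ppb and 158 and 164 CPM at 800 ppb. Its 800 ppb libraries were above all controls, with a log2 fold change of 0.41 (SE 0.14) at a site-term adjusted p of 0.930 and 0.23 (SE 0.08) at a batch-term adjusted p of 0.504. HSF1 itself, listed as hsf1, had 50.3, 20.8, 21.2, 24.5 and 33.9 CPM at 0 ppb and 27.3 and 32.4 CPM at 800 ppb, inside the control range.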

How the data were processed

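RNA sequencing of 10 libraries was used, grouped by dose from the sample titles. The tools listed in the submitters' processing notes are cutadapt, FastQC, edgeR and STAR, with no role given, and the build is GRCz11; the versions, counter, annotation and use of strand were not given in the sources used here, so genes that overlap cannot be separated. Whole-number counts of reads per Ensembl gene were deposited by the authors, and the 32057 genes shared by all libraries were kept. Of these, 20867 passed the low-count filter and were tested. The hospital core's files held 463 further features, with 0.339% and 0.342% of its counts. A further table deposited by the authors gives 18963 genes on a log2 scale; undoing the logarithm gave whole reads for 100% of values below 200 reads, within 0.05 reads. These recovered reads, identical to the count files in the hospital core's libraries and a different set of counts in the provider's, were tested as an alternative and called 0 members with the site term.

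The 10 libraries were fitted together in edgeR 4.0.16 (R 4.3.3) with dose and site as terms, after TMM scaling and filterByExpr, and tested by the two-sided quasi-likelihood F-test with Benjamini-Hochberg adjustment over 20867 genes and a threshold of 0.05. Library batches came from the log ratio of both count sets over 13232 genes with at least 50 reads; correlations were 0.903 to 0.952 within 3 clusters, a number that was set, and 0.748 to 0.818 between them. Common dispersion was 0.0419 with the site term (6 residual degrees of freedom) and 0.00757 with the batch term (4). Fitted alone, batch 4 gave 0.0131 and the pairs of 0 and 200 ppb gave 0.00337. Batch-term p-values at 800 ppb thus used a spread tighter than that of batch 4 alone. DESeq2 1.42.0 and limma-voom (limma 3.58.1) were alternatives. Python 3.11.15 with pandas 2.3.3, scipy 1.17.1 and matplotlib 3.10.9 made tables and plots. Fits were also run on counts simulated from the fitted models themselves. Such counts cannot show how well the p-values hold for the real libraries.

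Deviations from group means of same-numbered libraries correlated at 0.893, 0.511 and 0.685 for 0 and 200 ppb, so these numbers pair. For 0 and 800 ppb the correlations were -0.141 and 0.0385. Those values are not separate, as the deviations of 2 libraries from their mean are equal and opposite. The numbers shared by 0 and 800 ppb join libraries of different batches.

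A table of gene IDs and symbols named 28988 of the 32057 genes; 6 symbols were carried by more than 1 member, told apart by ID, and reads shared between such copies are uncertain. Roles are those of mammalian counterparts. CPM counts reads with no length correction, so levels were not ranked between genes. No sequence is printed. A short list of other J-domain proteins is not reported here. Members, lists, roles and alternatives were chosen with earlier results of these data known. Values in every library were given for the dnajb1 genes, members past the threshold with either term, the 6 members with the smallest p in each comparison with 0 ppb and the member with the most reads in each class; other members named were chosen after their values were seen.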

Additional observations from a re-analysis of the deposited data

Results flagged for a closer look

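Of 16 sets of control values tested for a library far from the others, 1 was singled out, and chance alone would single out about 1 in 20. DNAJB5 had 7.14 CPM in 0 ppb replicate 1, where the other controls had 4.64 to 5.36 CPM; that gap was 0.714 of the whole range, above the limit of 0.710 for 5 libraries. The library came from the hospital core, whose 200 ppb library had 7.0 CPM.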

How the results depend on the processing

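Against 0 ppb, 0 members were called at 800 ppb with the site term in edgeR, and also under DESeq2's size factors, no filter, limma-voom, no covariate, recovered reads and each omission of 1 library (0 to 0). The count was 1 with DESeq2, 2 with library batch, 1 within batch 4 alone, and 16 with a replicate block and site. That block called 6590 of the 20867 genes tested, and it pairs libraries of 0 and 800 ppb that only share a number. Further fits with the batch term, chosen after seeing the data, gave 1 to 2 calls when omitting each library, 2 on recovered reads, 3 with DESeq2 and 2 with limma-voom. At 800 against 200 ppb the block gave 16 calls and the batch term without 0 ppb replicate 5 gave 1 (dnaja1), with 0 to 1 over these omissions. At 200 against 0 ppb, where the replicate numbers pair libraries, the replicate block and all other settings gave 0 calls. No share of all genes is given for batch 4 alone, the further batch-term fits or the block at 800 against 200 ppb. Those counts thus have no background beside them. The difference of dnajb1 from other members kept its direction, over omissions from 0.532 to 0.701 at 800 ppb and from 0.151 to 0.498 at 200 ppb.

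At 800 against 0 ppb, 13 of the 50 members had opposite signs with the site and batch terms, none of them called. The other alternatives were run for the dnajb1 genes, the called members and those with the smallest p, and 4 of these turned direction without passing the test in the fits given. At 800 against 0 ppb these were dnajb1a without 0 ppb replicate 5 (-0.013, its other omissions reaching 0.230), DNAJC19 with the batch term without 0 ppb replicate 4 (0.0975), without 800 ppb replicate 1 (0.0296) and on recovered reads (0.0157), and DNAJA3 with the replicate block (-0.231) and without 800 ppb replicate 1 (-0.0616). At 200 against 0 ppb, DNAJC2 turned without 0 ppb replicate 3 (-0.01) or 200 ppb replicate 2 (-0.14). At 800 against 200 ppb, dnajb1a was -0.28 under the site term and 0.24 under the batch term, 0.130 to 0.354 over its omissions (0.223, 0.230, 0.2229, 0.2303 and 0.2311 without 0 ppb replicate 1 or 2, 200 ppb replicate 1 or 2 or 800 ppb replicate 2), 0.27 on recovered reads, 0.24 with DESeq2 and 0.25 with limma-voom. The cause was not tested. Precision was limited by 2 libraries at 800 ppb, all in 1 batch, and by levels near 1 CPM for the lowest members, so that small differences were not detectable.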
